A study of Mus musculus with 8 samples.

Results

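Interferon-induced GTPases and PYHIN proteins were followed through 8 mouse arrays of T helper 17 (Th17) cells, a CD4 T cell fate named for the cytokine interleukin 17. The 9 genes named for this group were the immunity-related GTPases Iigp1, Igtp, Irgm1 and Irgm2, the guanylate-binding proteins Gbp2 and Gbp3, and the PYHIN genes Ifi203, Ifi204 and Ifi209. They were proposed with their signals in both comparisons in view, and a gene counted where the platform table gave a probe set to its symbol alone. That held for 5 of the 9, Iigp1, Irgm1, Gbp3, Ifi203 and Ifi209, out of 19938 genes with such a probe set. Igtp and Irgm2 shared 1 probe set, Gbp2 shared one with Gbp2b, and Ifi204 shared one with Ifi211, so these 4 genes have no value of their own here.

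The arrays came from 2 experiments with 2 genotypes each and 2 arrays per group. In one, Th17 cells deficient in SRC-3, a nuclear receptor coactivator encoded by Ncoa3, stood beside SRC-3 wild-type cells, and in the other, Th17 cells lacking RORγt, a nuclear receptor needed for the Th17 fate, stood beside RORγt wild-type cells. The SRC-3-deficient cells came from mice labelled f/f, and no label names a Cre or the deleted part of the gene; the RORγt-deficient cells came from mice labelled -/-. The labels describe naive CD4 T cells activated through CD3 and CD28, with IL-1, IL-6 and IL-23 added for the Th17 state, and give neither strain, age nor sex. The titles speak of biological replicates without saying that these came from separate mice, so the spread between them may be in part technical.

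Interferons bind surface receptors whose kinases activate STAT proteins, which enter the nucleus with interferon regulatory factors and switch on a shared set of defence genes. Immunity-related GTPases and guanylate-binding proteins are 2 families of such genes: their products gather on the membranes of vacuoles that hold bacteria or parasites and help to break them open. PYHIN proteins combine a pyrin domain, which meets other pyrin domains, with a HIN domain that binds DNA, and some of them sense DNA or act in the nucleus on transcription.

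The start regions of the genes are shown because interferon-responsive elements usually lie close to the start site. The sequences are RefSeq windows of assembly GRCm38.p6, from 250 bases before the start to 50 bases from it, 5′ to 3′ on the strand of the gene. Of the 5 genes with a value, 4 had a window. Capitals in Irgm1, Gbp3 and Ifi203 include each match to the core of the interferon-stimulated response element, which is GAAA, any 2 bases and GAAA, on either strand; capitals in Ifi209 and the last letters of those in Ifi203 mark AAATCGAAAG, the longest run that these 2 windows share. Irgm1 lies at chr11:48871371-48871670 (minus strand), Gbp3 at chr3:142559794-142560093 (plus strand), Ifi203 at chr1:173942443-173942742 (minus strand) and Ifi209 at chr1:173630609-173630908 (plus strand).
Irgm1: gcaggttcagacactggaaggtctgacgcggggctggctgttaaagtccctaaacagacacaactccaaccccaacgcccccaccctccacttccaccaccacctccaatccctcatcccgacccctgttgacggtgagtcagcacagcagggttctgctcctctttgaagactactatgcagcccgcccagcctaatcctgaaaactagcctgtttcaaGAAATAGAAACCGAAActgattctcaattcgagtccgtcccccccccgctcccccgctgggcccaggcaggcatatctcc
Gbp3: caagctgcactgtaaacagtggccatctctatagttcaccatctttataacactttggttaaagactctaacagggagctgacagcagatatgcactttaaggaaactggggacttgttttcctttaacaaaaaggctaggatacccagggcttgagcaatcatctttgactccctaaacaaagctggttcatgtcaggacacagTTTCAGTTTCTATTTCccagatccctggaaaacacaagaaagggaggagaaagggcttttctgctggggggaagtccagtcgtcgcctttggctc
Ifi203: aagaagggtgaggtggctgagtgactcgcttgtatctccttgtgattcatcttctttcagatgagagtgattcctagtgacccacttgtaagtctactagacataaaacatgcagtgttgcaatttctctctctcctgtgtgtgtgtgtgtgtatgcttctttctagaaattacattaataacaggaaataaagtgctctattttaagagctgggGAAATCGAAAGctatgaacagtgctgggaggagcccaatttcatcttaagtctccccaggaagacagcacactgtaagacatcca
Ifi209: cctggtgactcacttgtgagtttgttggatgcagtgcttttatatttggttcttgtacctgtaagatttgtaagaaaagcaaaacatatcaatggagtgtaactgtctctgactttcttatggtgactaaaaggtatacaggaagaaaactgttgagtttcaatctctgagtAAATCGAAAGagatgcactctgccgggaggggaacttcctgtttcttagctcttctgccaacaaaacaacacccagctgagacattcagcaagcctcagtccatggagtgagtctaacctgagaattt

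In Irgm1 the response element core began at -30 and, overlapping it, at -24 from the start site. In Gbp3 it lay on the opposite strand, with matches at -45 and -39. In Ifi203 it began at -35. The Ifi209 window held no match, and neither did a further annotated start of Gbp3 or of Ifi203. A match was found in 1131 of all 32851 mouse windows (3.44%), in 17 of 23 windows of the related GTPase and PYHIN genes, and in 12 of 32 windows of other interferon-stimulated genes. The run AAATCGAAAG was picked after the windows had been read. It occurred in 12 of the 32851 windows (0.0365%), and 7 of those belonged to PYHIN genes, namely Ifi203, Ifi206, Ifi208, Ifi209, Ifi213, Ifi214 and Mndal; in Ifi209 it began at -78 and in Ifi203 at -34. Neither the interferon gamma activated site TTCNNNGAA, present in 8.3% of all windows, nor AGGTCA, the core that ROR receptors bind and present in 16.3%, was found in the windows of these 4 genes on either strand. The windows of Igtp and Irgm2, which have no value of their own, held both. TTCNNNGAA was found in 7 of 23 windows of relatives and 8 of 32 of other interferon-stimulated genes. AGGTCA was found in 1 and 6 of them. These matches describe letters and are not measured binding.

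The deposited values are log2 signals, on which a difference of 1 is a doubling. Differences were fitted with limma over all 8 arrays, and genes entered the test if they reached 7.85, the median of all values, on at least 2 arrays, which 11128 genes did. All 5 genes passed, Irgm1 and Gbp3 on 8 arrays, Iigp1 on 5, Ifi209 on 4 and Ifi203 on 3. The arrays on which Ifi203 did were all deficient, so it passed only through the groups where it was high. For Iigp1 and Ifi209, SRC-3 wild-type replicate 1 was the only wild-type array that reached 7.85. Ncoa3 read 11.15 and 10.97 with SRC-3 deficiency against 11.76 and 11.53 in wild type (log2 difference -0.58, limma adjusted p = 0.0567). Markers of CD4 T cells were present in every group, with 5 of 5 above 7.85. Because the genes were chosen on these contrasts, their differences are given without a test.

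All 5 genes were higher in RORγt-deficient than in wild-type Th17 cells. Iigp1, an effector GTPase that coats parasite vacuoles, had log2 signals of 9.61 and 8.90 in deficient cells against 6.81 and 6.89 in wild-type cells. Its deficient mean was 5.30 times the wild-type mean (log2 difference 2.41, SE 0.47, n = 2 per group). The higher wild-type array lay far below the lower deficient array, although the deficient arrays differed from each other by 0.71.

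Irgm1, a regulatory member of the same family that holds effector GTPases inactive on the cell's own membranes, gave 11.23 and 10.88 in RORγt-deficient cells and 10.65 and 10.40 in wild-type cells. The groups did not overlap, and the mean was 1.44 times that of wild type (log2 difference 0.53, SE 0.20). Gbp3, a guanylate-binding protein, gave 10.14 and 10.16 against 9.33 and 9.14. It had the tightest deficient arrays of the 5 genes, and its mean was 1.89 times that of wild type (0.92, SE 0.07).

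Both PYHIN genes were dim in RORγt wild-type cells. Ifi203 gave 8.68 and 7.74 without RORγt against 6.52 and 6.54 with it, 3.21 times the wild-type mean (log2 difference 1.68, SE 0.29). Ifi209 gave 9.14 and 7.79 against 6.36 and 6.40, 4.23 times the wild-type mean (2.08, SE 0.47). Deficient replicate 2 was lower than replicate 1 by 0.95 for Ifi203 and by 1.35 for Ifi209, yet above both wild-type arrays. Without deficient replicate 1 the difference was 1.21 for Ifi203 and 1.41 for Ifi209. Thus both deficient arrays lay above both wild-type arrays for 5 of 5 genes, as they did for 35.8% of all genes tested, and the median difference was 1.68 beside 0.001 over all genes.

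**Figure D1:**
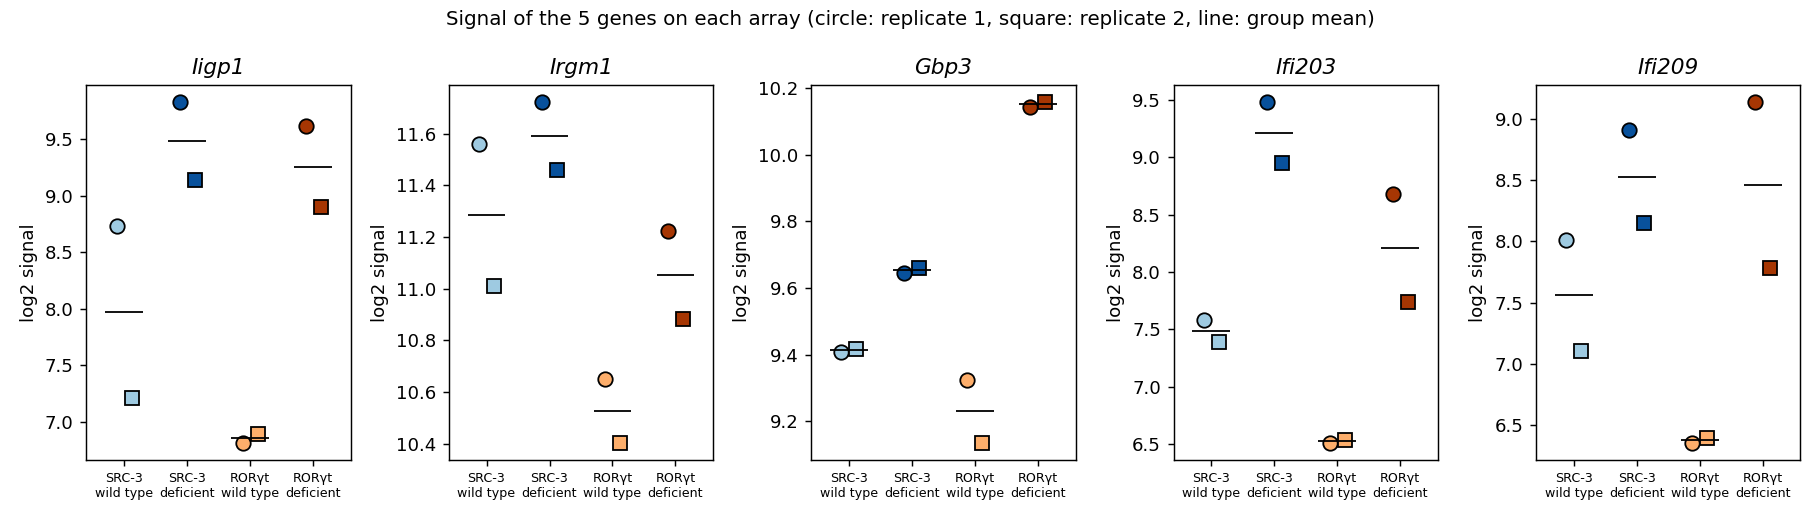
Log2 signal of Iigp1, Irgm1, Gbp3, Ifi203 and Ifi209 (vertical axes, each with its own range) on the 8 arrays by group, with circles for replicate 1, squares for replicate 2 and lines for group means. RORγt-deficient arrays lie above their wild-type arrays for all 5 genes, and Iigp1 spreads from 8.73 to 7.21 between the SRC-3 wild-type arrays.

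In the SRC-3 experiment the same genes were again higher in deficient cells, and for 4 of the 5 the groups did not overlap, beside 23.0% of all genes tested. Ifi203 gave 9.48 and 8.94 in SRC-3-deficient cells against 7.58 and 7.39 in wild-type cells. Its mean was 3.31 times that of wild type (log2 difference 1.73, SE 0.29), and the gap between the groups was wider than the difference between replicates. Gbp3 was again tight, at 9.65 and 9.66 against 9.41 and 9.42, with a mean 1.18 times that of wild type (0.24, SE 0.07).

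The other GTPases were less clearly separated by SRC-3 genotype. Iigp1 gave 9.83 and 9.14 in SRC-3-deficient cells and 8.73 and 7.21 in wild-type cells, a mean 2.85 times that of wild type (log2 difference 1.51, SE 0.47). Its wild-type arrays differed by 1.52, as much as the groups did. The difference was 0.75 without wild-type replicate 2 and 2.27 without wild-type replicate 1.

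Irgm1 gave 11.72 and 11.46 in SRC-3-deficient cells against 11.56 and 11.01 in wild-type cells. Here the groups overlapped, the mean was 1.23 times that of wild type (0.30, SE 0.20), and the difference was 0.03 without wild-type replicate 2. Ifi209 gave 8.90 and 8.15 against 8.01 and 7.11, a mean 1.95 times that of wild type (0.97, SE 0.47). For this gene the gap between the lower deficient and the higher wild-type array was smaller than the difference between replicates of either group. The difference between the group means was 0.51 without wild-type replicate 2 and 1.42 without wild-type replicate 1. The median of the 5 differences was 0.97 beside 0.019 over all genes; it was 0.51 when SRC-3 wild-type replicate 2 was left out and 1.42 when wild-type replicate 1 was. Leaving out SRC-3-deficient replicate 1 gave 0.59.

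Set side by side, the RORγt difference exceeded the SRC-3 difference by 1.12 for Ifi209, 0.89 for Iigp1, 0.68 for Gbp3 and 0.23 for Irgm1, and lay 0.04 below it for Ifi203 (-0.04). These gaps were not tested. The wild-type groups also stood apart: the SRC-3 wild-type mean exceeded the RORγt wild-type mean by 1.18 for Ifi209, 1.12 for Iigp1, 0.96 for Ifi203, 0.76 for Irgm1 and 0.18 for Gbp3, and the 2 experiments cannot be told apart from any difference in culture or hybridisation. Array medians also lay higher in the SRC-3 experiment, at 7.90 to 7.93 against 7.76 to 7.80, and these values are not corrected for it. Across the 8 arrays Iigp1 spanned 8.08-fold, Ifi203 7.80-fold, Ifi209 6.85-fold, Irgm1 2.50-fold and Gbp3 2.03-fold. Iigp1 and the PYHIN genes therefore carried most of the movement, and Gbp3 the least.

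Differences between the replicates of a group were not the same in every group or gene. On the SRC-3 wild-type arrays, replicate 1 exceeded replicate 2 by 1.52 for Iigp1, 0.91 for Ifi209, 0.55 for Irgm1 and 0.19 for Ifi203, and Gbp3 differed by -0.01. On the RORγt-deficient arrays the corresponding values were 0.71, 1.35, 0.34, 0.95 and -0.01. In SRC-3-deficient cells they were 0.69, 0.75, 0.27, 0.54 and -0.01. On the RORγt wild-type arrays they were mixed in sign, at -0.08, -0.04, 0.25, -0.03 and 0.19. Gbp3 thus did not follow the other 4 genes between replicates. The mean of the 5 genes, less the mean of its experiment, was 1.10 and 0.43 in RORγt-deficient cells against -0.73 and -0.79 in wild-type cells. The corresponding SRC-3 values were 0.70 and 0.25 against -0.16 and -0.79. Within the SRC-3 experiment, wild-type replicate 1 lay between wild-type replicate 2 and the deficient arrays; the centring leaves no comparison of levels between the experiments.

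**Figure D2:**
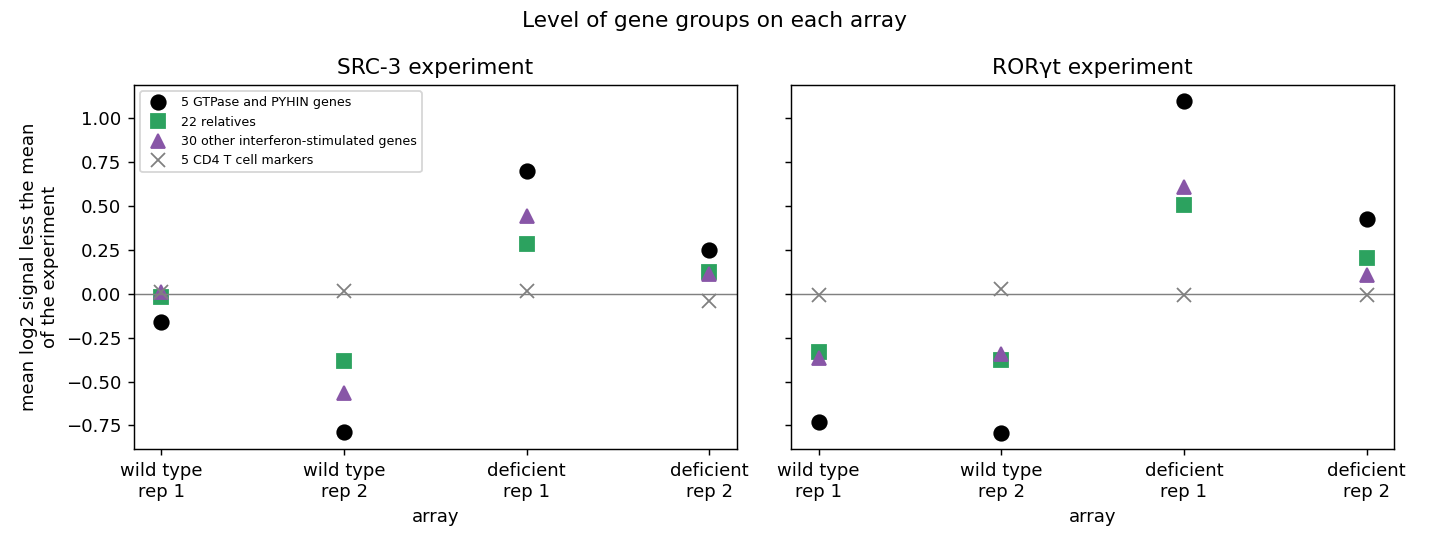
Mean log2 signal of 4 gene groups on each array, less the mean of the experiment (vertical axis), for the 4 arrays of each experiment (horizontal axis); no error is drawn since each point is 1 array. The 5 genes range from -0.79 to 1.10, other interferon-stimulated genes from -0.56 to 0.61, and CD4 T cell markers stay near 0.

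The genes whose 8 values lay closest to this mean profile were Mx1, Oasl2, Ms4a4c, Irf7, Slfn1, Gbp9, Xaf1 and Mx2, ranked by root mean square difference over the 8 arrays among 11123 genes. The difference was 0.0889 for Mx1, a dynamin-like antiviral GTPase, 0.116 for Oasl2, an oligoadenylate synthetase-like protein, 0.118 for Ms4a4c and 0.16 for Irf7, an interferon regulatory factor. It was between 0.165 and 0.18 for the other 4. The 5 genes themselves lay further from their own mean, from 0.282 for Ifi209 to 0.437 for Iigp1.

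Related genes of both families, outside the 9, were then examined: 22 had a probe set of their own, and 12 of them passed the filter. In RORγt-deficient cells 10 of these 12 rose and 0 fell (limma adjusted p below 0.05), where 10.0% of all genes tested rose; the median difference was 0.99. Without the filter 11 of the 22 rose, beside 4.72% of all genes. The list was drawn up with earlier results of these data known. The count of 10 was 4 without RORγt-deficient replicate 1 or without RORγt wild-type replicate 2, and 5 without wild-type replicate 1, and the share of all genes called, 19.4%, was between 4.37% and 5.63% in those fits.

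Gm12250, which carries the synonym Irgb10 and encodes a GTPase that acts on bacterial membranes, rose from 9.81 and 9.91 in RORγt wild-type cells to 11.26 and 10.96 in deficient cells (log2 difference 1.25, SE 0.15, limma adjusted p = 0.00298). Gbp5, which promotes inflammasome assembly, rose from 10.70 and 10.62 to 11.65 and 11.45 (0.89, SE 0.11, limma adjusted p = 0.00299). Gbp4 rose from 10.80 and 10.96 to 11.79 and 11.74 (0.88, limma adjusted p = 0.00532). With Gbp8 (0.72, limma adjusted p = 0.0061), these 4 genes also passed in each of the 8 fits that left out 1 array.

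The remaining GTPases rose with more spread. Gbp11 rose by 1.32 on the log2 scale (limma adjusted p = 0.00641), Gbp7 by 0.78 (0.0104), Gbp9 by 1.09 (0.0214), Mx1 by 1.43 (0.0183) and Gm4951, an immunity-related GTPase, by 1.47 (0.0397). Each of these 5 missed the threshold without RORγt-deficient replicate 1 and without RORγt wild-type replicate 2, and all but Gbp11 also without wild-type replicate 1 (highest limma adjusted p 0.0562 for Gbp11 and 0.222 for Gm4951). Mx2 had a difference as large, 1.42, but its deficient arrays read 9.18 and 8.26, and it missed the threshold (limma adjusted p = 0.0604). Irgq, a GTPase-like gene that is not known for induction by interferon, had the smallest difference of the 12 (log2 difference 0.00, SE 0.07, limma adjusted p = 0.981). Among genes below the filter, fitted without it, Gbp2b rose by 0.79 (limma adjusted p = 0.00117), while Gm12185 differed by 0.67 (0.0754) and Irgc1 by -0.12 (0.423).

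PYHIN relatives were mostly dim, with 7 of 8 below the filter. Aim2, the cytosolic DNA sensor that assembles an inflammasome, was the one that passed it. It rose from 9.13 and 9.05 to 9.36 and 9.38 in RORγt-deficient cells (log2 difference 0.28, SE 0.08, limma adjusted p = 0.0386), a call that was lost in 6 of the 8 fits that left out 1 array. Ifi214 rose without the filter, from 6.02 and 5.95 to 7.88 and 6.77 (1.34, limma adjusted p = 0.0333). When 1 array was left out, the Ifi214 difference ranged from 0.79 to 1.9, and its call did not hold in every such fit. The other dim genes, Ifi206, Ifi213, Ifi208, Ifi207, Ifi202b and Ifi205, lay between 0.48 and -0.23 and did not pass.

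In SRC-3-deficient cells 0 of the 12 relatives past the filter passed limma's adjusted threshold, beside 0.225% of all genes, and 8 of 12 had an unadjusted p below 0.05, beside 12.5% of all genes. Of these 8, 7 GTPases were higher and Aim2 was lower. The median difference of the 12 was 0.59. The smallest adjusted p was that of Gbp5, at 11.08 and 11.11 in deficient cells against 10.65 and 10.36 in wild-type cells (log2 difference 0.59, SE 0.11, limma adjusted p = 0.0829). Gbp11 differed by 0.96 (0.123), Gbp8 by 0.50 (0.131), Gbp4 by 0.56 (0.14) and Gm12250 by 0.60 (0.168). Without SRC-3 wild-type replicate 1, 3 of the 12 passed, namely Gbp4, Gbp5 and Gbp8.

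Aim2 went the other way in the SRC-3 experiment, with 9.29 and 9.32 in deficient cells against 9.64 and 9.45 in wild-type cells (log2 difference -0.24, limma adjusted p = 0.266). Gbp7 overlapped between the SRC-3 groups, with a difference of 0.16 (0.722). When the RORγt difference was tested against the SRC-3 difference, 0 of the 12 relatives passed limma's adjusted threshold, beside 1.67% of all genes, and 3 had an unadjusted p below 0.05, beside 17.3% of all genes. The gap was 0.52 for Aim2 (limma adjusted p = 0.0644). A gene that rose in one experiment and did not pass in the other is thus not shown to differ between them.

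**Figure D3:**
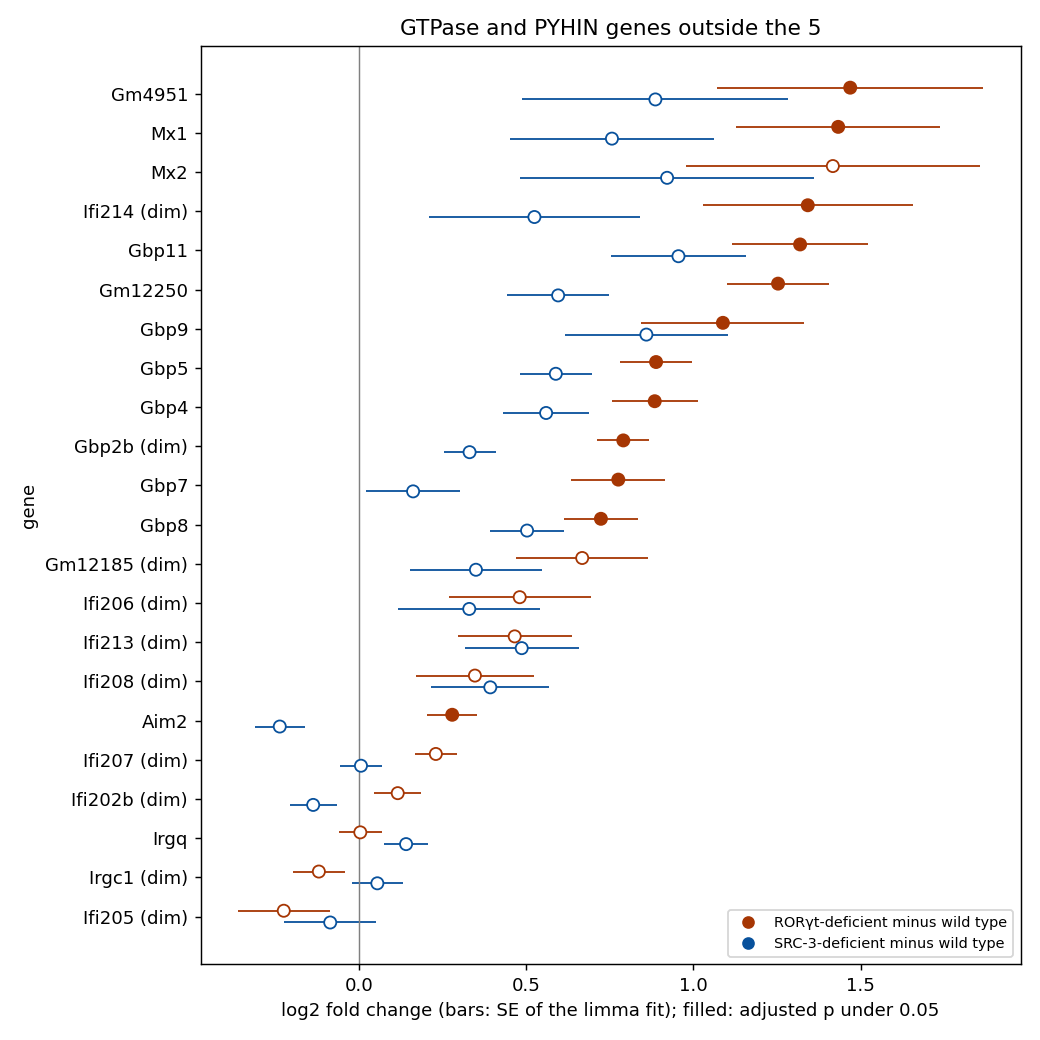
Log2 difference, deficient minus wild type (horizontal axis), with the SE of the limma fit as bars for 22 related genes (vertical axis) in the RORγt and SRC-3 experiments; filled points passed an adjusted p of 0.05 and dim genes were fitted without the filter. Filled points are found in the RORγt experiment alone, from Aim2 at 0.28 to Gm4951 at 1.47, and no SRC-3 point passed.

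The wider interferon pathway was read from lists of ligands, receptors, regulators and targets, also drawn up with earlier results known, in which 84 genes passed the filter. In RORγt-deficient cells 30 rose and 2 fell, where 10.0% and 9.37% of all genes tested did. In SRC-3-deficient cells 0 of 84 passed limma's threshold, beside 0.225% of all genes, and 28 had an unadjusted p below 0.05, beside 12.5% of all genes. Of these 28, Nlrp3 was lower (log2 difference -0.49, with every SRC-3 array below 7.85) and the rest were higher. The RORγt count of 32 was 4 without RORγt wild-type replicate 2, 8 without wild-type replicate 1 or deficient replicate 1, and 46 when 1 SRC-3 wild-type array, whichever it was, was left out. Without RORγt wild-type replicate 2 the pathway share was 4.76%, no higher than the 5.01% of all genes called in that fit. Without deficient replicate 1 or wild-type replicate 1 it was 9.52%, beside 4.37% and 5.63% of all genes, and in the fits with 46 calls it was 54.8%, beside 22.8%.

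Of 10 interferon and related ligand genes measured, 3 passed the filter (Ifna5, Ifnl2 and Il27). By limma, 0 of these passed in RORγt-deficient cells, 0 had an unadjusted p below 0.05, and their median difference was 0.00. Below the filter, Ifng, which encodes interferon gamma, rose from 7.17 and 7.16 to 7.60 and 7.87 (log2 difference 0.57, limma adjusted p = 0.0136, fitted without the filter). The inflammasome-processed cytokine gene Il18 rose by 0.45 (0.00745) in that fit, and Ifnb1 differed by -0.27 (0.129). In SRC-3-deficient cells Ifng differed by -0.11 (0.81).

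Among receptors and signalling genes 5 of 10 rose in RORγt-deficient cells and 0 fell, with a median of 0.36. Ifngr1, a chain of the interferon gamma receptor, rose from 11.40 and 11.42 to 12.25 and 12.17 (log2 difference 0.79, SE 0.09, limma adjusted p = 0.00204). The type I receptor chains Ifnar1 (0.38, 0.0101) and Ifnar2 (0.25, 0.0362), the interleukin 10 family receptor chain Il10rb (0.41, 0.0304) and the transcription factor Stat2 (0.72, 0.0418) rose too, each given as log2 difference and limma adjusted p. Of the inhibitors 2 of 6 rose, Pias1 (0.25, 0.0187) and Socs3 (0.67, 0.0228). Usp18, a protease that removes ISG15 and dampens type I receptor signalling, differed by 1.20 but spread from 11.41 to 10.49 between deficient arrays and did not pass (limma adjusted p = 0.218).

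Of the interferon transcription factors 4 of 7 rose in RORγt-deficient cells. Irf1, which drives many interferon gamma targets, rose from 10.61 and 10.49 to 11.09 and 11.14 (log2 difference 0.56, limma adjusted p = 0.00641). Irf7 rose from 9.91 and 9.82 to 11.33 and 10.66 (1.13, 0.0406), followed by Nlrc5, a transactivator of MHC class I genes (0.51, 0.0183), and Irf2 (0.39, 0.0104). In SRC-3-deficient cells Irf7 differed by 0.81 (limma adjusted p = 0.344).

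Other interferon-stimulated genes included 11 of 30 that rose and 0 that fell in RORγt-deficient cells, with a median of 0.72; in SRC-3-deficient cells the median was 0.52 and 0 passed (16 had an unadjusted p below 0.05). Samhd1, which depletes nucleotides needed by viruses, differed by 0.64 (limma adjusted p = 0.0018), Ifit2 by 0.71 (0.00428), the nucleic acid sensor Zbp1 by 0.83 (0.01), the nuclear body protein Sp100 by 0.48 (0.0165), and Parp9 and its partner Dtx3l by 0.75 (0.0109) and 0.69 (0.025). Of the antigen presentation genes 5 of 11 rose, the peptide transporter genes Tap1 (0.54, 0.00975) and Tap2 (0.28, 0.0251), Tapbp (0.42, 0.00879) and the immunoproteasome subunits Psmb9 (0.62, 0.0119) and Psmb10 (0.52, 0.0237).

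Genes that work with these proteins in pathogen defence did not share 1 direction: 3 of 17 rose and 2 fell in RORγt-deficient cells, beside 10.0% and 9.37% of all genes, with a median of 0.03. The inflammasome adaptor Pycard rose by 0.50 (limma adjusted p = 0.00657), the DNA-sensing adaptor Sting1 by 0.41 (0.00604) and the pore-forming protein Gsdmd by 0.40 (0.0457). The inflammasome sensor Nlrp3 fell from 8.35 and 8.31 to 7.12 and 7.17 (log2 difference -1.18, SE 0.09, limma adjusted p = 0.000616). Nlrp3 reached the filter value on the 2 RORγt wild-type arrays alone, so it passed the filter only through the group where it was high. The autophagy gene Atg3 differed by -0.29 (limma adjusted p = 0.0263).

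**Figure D4:**
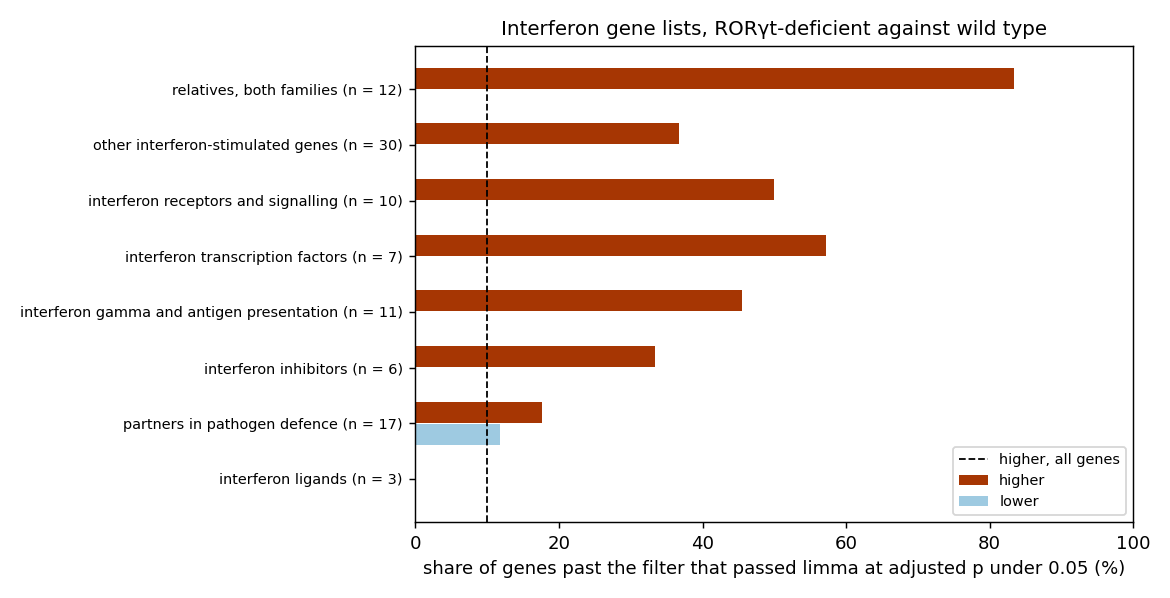
Share of genes past the filter that rose or fell in RORγt-deficient cells (horizontal axis, percent, from 0), for each gene list (vertical axis, n = genes past the filter), with the 10.0% of all genes that rose as a dashed line. The relatives stand at 10 of 12 and the other interferon-stimulated genes at 11 of 30, while the partners in pathogen defence hold 3 that rose and 2 that fell.

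Signals from a culture do not separate how many cells make a transcript from how much each cell makes: fewer cells of a type and less RNA per cell cannot be told apart. The 4 Th17 markers measured had a summed linear signal of 1065 to 1113 on RORγt-deficient arrays and 10366 to 12070 on their wild-type arrays, and of 4521 to 5362 and 8121 to 9382 in the SRC-3 experiment. The 6 NK cell markers summed to 964 to 1036 on RORγt-deficient arrays and 592 to 617 on wild-type arrays. In the SRC-3 experiment they summed to 531 to 625 and 604 to 625. Of these markers, Ncr1, Klrb1c, Klrk1 and Eomes were below 7.85 in every group. Klrd1 differed by 1.90 in the RORγt experiment (limma adjusted p = 0.000485). It reached 7.85 on the 2 RORγt-deficient arrays alone, so it passed the filter only through the group where it was high. The 8 macrophage and dendritic cell markers summed to 1521 to 1716 on RORγt-deficient and 1915 to 1964 on wild-type arrays, and to 1202 to 1302 and 1134 to 1175 in the SRC-3 experiment, with 7 of 8 below 7.85 in all groups. The summed signal of the 2 CD8 T cell markers was higher in both deficient groups. It was 706 to 708 against 626 to 659 in the RORγt experiment and 589 to 624 against 460 to 506 in the SRC-3 experiment. Cd8b1 differed by 0.18 (limma adjusted p = 0.229) and 0.42 (0.133) in these experiments. Cd8a was below 7.85 in every group, differed by -0.001 and 0.10, and overlapped between the groups of both experiments. The part of other cells in the differences was not tested.

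Sex was not balanced either. Xist, transcribed from the inactive X chromosome of female cells, read 6.37 and 6.08 in RORγt-deficient cells against 12.56 and 12.76 in wild-type cells, so sex and RORγt genotype cannot be told apart. In the SRC-3 experiment it read 7.10 on deficient replicate 1 and 13.60, 13.65 and 13.52 on the other arrays. Within the arrays of high Xist signal, without SRC-3-deficient replicate 1, the SRC-3 difference was 1.46 for Ifi203, 1.17 for Iigp1, 0.59 for Ifi209, 0.25 for Gbp3 and 0.17 for Irgm1.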

How the data were processed

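Total RNA of 8 Th17 samples was hybridised to Affymetrix Mouse Gene 1.0 ST arrays, 2 per group. The deposited values are log2 signals; the submitters' processing notes name RMA and Affymetrix Expression Console, without versions, and nothing was renormalized. Probe sets with 1 symbol in the platform table were used, and the one with the highest mean stood for its symbol; 1621 with several symbols and 12146 without one were not used. Genes reaching 7.85 on at least 2 arrays were kept, and named genes below that were fitted without the filter. RMA with quantile normalization gives arrays normalized together nearly 1 distribution, so a shift of most genes would not be seen. Array medians differed between the 2 experiments. Cross-hybridisation between near-identical family members was not tested.

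A limma 3.58.1 model (R 4.3.3) with 4 group means and no block took in the 8 arrays. Tests were two-sided, with Benjamini-Hochberg adjustment over the 11128 genes, and each SE is that of the fit. The steps were tested on simulated data. The members and lists were chosen with earlier results of these data known. The text names all measured members and relatives, Ncoa3, up to 6 genes per list past the threshold by smallest p (up to 4 where none passed), marker and sex genes beside a result, and the 8 genes nearest the members' mean profile. Replicate numbers come from the titles and were not shown to mark pairs. Alternatives changed the normalization, filter, probe set rule, arrays in the fit, variance prior, array weights, block and threshold. The number of arrays limits the precision. Promoter motifs were searched on both strands. Some genes are not reported here.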

Additional observations from a re-analysis of the deposited data

Results flagged for a closer look

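The RORγt difference and the SRC-3 difference of some genes that were read beside the members did not match. By limma's test of the difference between them, over genes past the filter, this mismatch held for Ncoa3 (0.76 on the log2 scale, adjusted p = 0.0394), the targeted gene of 1 experiment. Nlrp3, which was lower in both deficient groups, passed the filter only through the RORγt wild-type arrays. The mismatch held for this gene (-0.69, adjusted p = 0.049), a call lost without the filter. It also held for the Th17 markers Il17a (-3.01, adjusted p = 0.00343), Il17f (-2.33, 0.00325), Il23r (-2.55, 0.00325) and Ccr6 (-1.80, 0.00596), and for the NK cell marker Klrd1 (2.37, 0.00325), which differed by 1.90 in the RORγt experiment and by -0.46 in the SRC-3 experiment.

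A further set had both deficient arrays on opposite sides of the wild-type arrays in the 2 experiments, with a gap that did not pass limma's adjusted threshold. These were the PYHIN genes Aim2 (0.52, adjusted p = 0.0644) and Ifi202b (0.25, 0.358, fitted without the filter), the type I interferon gene Ifnb1 (-0.35, 0.353, fitted without the filter), the interferon gamma receptor chain Ifngr2 (-0.48, 0.0941), the inflammasome protease Casp1 (0.64, 0.175), the autophagy gene Gabarap (-0.14, 0.381) and the macrophage marker Cd68 (-0.68, 0.114). Groups without overlap were common: both deficient arrays lay above both wild-type arrays for 35.8% (RORγt) and 23.0% (SRC-3) of all genes tested. The share of all genes with opposite sides in the 2 experiments was not counted, so these genes are not shown to stand out.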

How the results depend on the processing

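With 2 arrays per group, single arrays set many calls. Leaving out each array in turn, the median difference of the 5 genes ranged from 1.21 to 2.15 (RORγt) and from 0.51 to 1.42 (SRC-3), and stayed above 0. Relatives called ranged from 4 to 11 (RORγt), 0 to 3 (SRC-3) and 0 to 1 (the gap between the comparisons), pathway genes called in RORγt-deficient cells from 4 to 46, and all genes called from 486 to 2539 (RORγt) and from 0 to 61 (SRC-3). Fits that leave 1 array in a group assume that it varies like the others. With the replicate number as a block (replicate block), fitted in each experiment, calls were 52 pathway genes and 3411 genes in all (RORγt), 4 relatives, 11 pathway genes and 301 in all (SRC-3), and 1 relative for the gap. Over 11128 genes, deviations of same-numbered arrays correlated at 0.536 (SRC-3) and 0.002 (RORγt), with 2 pairs in each experiment. Arrays were not treated as paired because the replicate numbers in the titles were not shown to mark pairs. Whether same-numbered SRC-3 arrays share an effect was not tested. With the 4 arrays alone calls were 53 pathway genes and 3389 in all (RORγt) and 0 in all (SRC-3), and with array weights 52, 3679 and 10. At a threshold of 0.01 they were 5 relatives, 9 pathway genes and 749 in all (RORγt) and 0 in all (SRC-3); at 0.1 they were 1 relative, 1 pathway gene and 129 in all (SRC-3) and 1 relative for the gap. In the SRC-3 comparison a stricter filter gave 14 in all, and an intensity trend with a robust prior 47. The cause was not tested. Renormalization, median shift, no filter and averaging of probe sets left each of these counts within 1.5 times. For the single genes of the 5, 168 of 170 alternative values moved by less than the replicate spread, and the direction was kept in all 170. Many of these alternatives cannot change a fitted difference, such as the filter, the variance prior or leaving out an array of the other experiment. Their agreement was therefore largely fixed in advance and does not measure robustness.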
